A study of Rattus norvegicus with 4 samples.

Results

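The genes described here are 159 rat genes whose transcripts were lower with UNC9994 than with its vehicle at both times sampled, out of 11620 Ensembl gene IDs that reached 2 FPKM in at least 1 of 4 libraries. FPKM counts sequenced fragments for each kilobase of a gene model after scaling for the size of the library, so levels can be compared between genes. Members were chosen by 1 rule: the log2 ratio of UNC9994 to DMSO, each FPKM raised by 0.5, was at or below -1 at 12 h and also at 24 h. A value of -1 is 2-fold lower on this scale. The rule used all 4 libraries, so the levels and ratios below describe how the members were chosen and how they vary, and no test is attached to them.

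The libraries came from MMQ cells, a cell line from a rat pituitary tumour that secretes prolactin. One culture each received DMSO for 12 h, DMSO for 24 h, UNC9994 at 15 µM for 12 h and UNC9994 at 15 µM for 24 h. All were grown in the same medium with fetal bovine and horse serum, and MMQ is a single line. With 1 library per combination of treatment and time there is no replicate error. A drug library and its vehicle library can also differ by culture or preparation, which cannot be told apart from the treatment.

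Dopamine restrains the lactotroph, the prolactin-secreting cell of the pituitary, through the D2 receptor. This receptor couples to inhibitory G proteins, which lower cyclic AMP, and also recruits beta-arrestin, a scaffold with signalling partners of its own. UNC9994 is a ligand of the D2 receptor known for favouring the arrestin arm, and the title of the series calls it an agonist. A transcript level reflects both synthesis and decay, so a lower level in RNA-seq of a whole culture does not tell these apart. Fewer cells of a kind and less RNA per cell cannot be told apart either.

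The files give Ensembl numbers without gene names. The RefSeq gene table used here (assembly GRCr8, 47357 genes) holds an Ensembl ID for 0 of its genes, so 0 of the 159 members could be named. The gene lists and cell type markers drawn up for this work, and promoter sequences, are therefore not analysed here. Members are described by their levels, their gene model lengths and the reads behind them, and the 2 with the lowest mean ratio are given by ID. Whole read numbers could be recovered from the FPKM. Summed over all IDs, the recovered reads numbered between 17433867 and 21728374 per library. These are reads assigned to genes, and the number sequenced is not known here.

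The members were moderately abundant in vehicle and stood well below that level on the drug at either time. In DMSO at 12 h their FPKM ran from 0.657 through a median of 16.1 to 575, and in DMSO at 24 h from 0.512 through 16.6 to 563. In UNC9994 at 12 h they ran from 0 through a median of 5.77 to 262, and in UNC9994 at 24 h from 0 through 6.65 to 269.8. The median member thus stood at 36.2% of its vehicle level at 12 h and at 39.7% at 24 h. Their vehicle medians were close to those of the 11620 IDs they came from, 14.7 FPKM in DMSO at 12 h and 14.6 at 24 h, whose highest levels were 27721 and 27927 FPKM. Every member reached 2 FPKM in a DMSO library, whereas the 11620 also hold IDs that did so only on the drug. The medians are thus not of sets filtered alike.

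**Figure D1:**
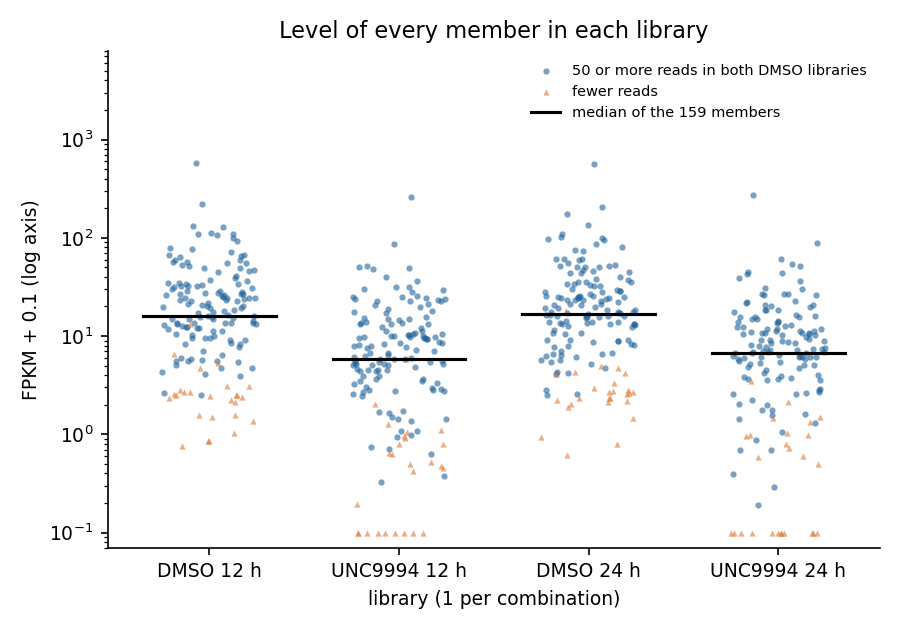
FPKM of each of the 159 members in the 4 libraries (log axis, 0.1 added so that zeros can be drawn), with circles for the 133 members that held 50 or more reads in each DMSO library, triangles for the other 26, and a bar at the median. The medians are 16.1 and 16.6 FPKM in the DMSO libraries and 5.77 and 6.65 in the UNC9994 libraries, and most triangles lie at the low end in every library.

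The members took 1.16% of all recovered reads of the 12 h DMSO library, with a 95% Wilson interval of 1.15 to 1.16. They took 1.14% of those of the 24 h DMSO library (1.14 to 1.15). Of the UNC9994 libraries they took 0.459% at 12 h (0.457 to 0.462) and 0.468% at 24 h (0.465 to 0.471). These intervals, and the later ones of folds and of recovery, cover counting error only. The share lost was about equal at the 2 times. The 10 members with the highest mean DMSO FPKM held 26.6% of the members' reads in DMSO at 12 h.

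The share of members was nearly the same at every vehicle level when all members are counted. Among IDs with a mean DMSO level under 5 FPKM, 1.33% were members (32 of 2406). The shares were 1.29% between 5 and 20 FPKM (59 of 4569), 1.54% between 20 and 50 FPKM (43 of 2789) and 1.35% at 50 FPKM or more (25 of 1856). Over all levels the share was 1.37%, the background against which each of these stands. At the lowest level it rested on few reads: 24 of those 32 members had under 50 reads in a DMSO library. Among IDs that held 50 or more reads in each DMSO library, the share under 5 FPKM was 0.561% (8 of 1426), and at the higher levels it was 1.32%, 1.56% and 1.35%. The amount added to each FPKM makes the rule stricter at low levels, which lowers the share under 5 FPKM by construction. That class can also hold IDs that passed the filter only on the drug, and these could not be members. How much of the lower share comes from these limits was not tested.

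At 12 h, 460 of the 11620 IDs (3.96%) were at or below -1, and at 24 h 330 were (2.84%). The 159 members made up 34.6% of the first list and 48.2% of the second. In the other direction, 75 IDs (0.645%) were at or above 1 at both times. In every member both DMSO values were above both UNC9994 values, which the rule makes likely and which held for 31.9% of all 11620 IDs.

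Most members lay close to the bound of the rule. Their log2 ratio had a median of -1.35 at 12 h, with the lowest at -4.28, and a median of -1.21 at 24 h, with the lowest at -3.62. For all IDs the medians were -0.022 and -0.0098. Between -1 and -1.5 lay 104 members at 12 h and 133 at 24 h. At or below -2, which is 4-fold lower on the raised FPKM of the rule, lay 15 at 12 h and 17 at 24 h. The folds given below use FPKM without that addition and are larger. The member ranked 4 by mean ratio, for example, stood 5.24-fold below vehicle at 12 h with a log2 ratio of -1.89. The tail below -2 was thus short at both times, and only 5 members were in it at both. The depth at 12 h said little about the depth at 24 h within the members: across the 159 the Spearman correlation of the 2 ratios was 0.075, a description over genes from the same 4 libraries and over a range that the rule cuts off at -1.

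**Figure D2:**
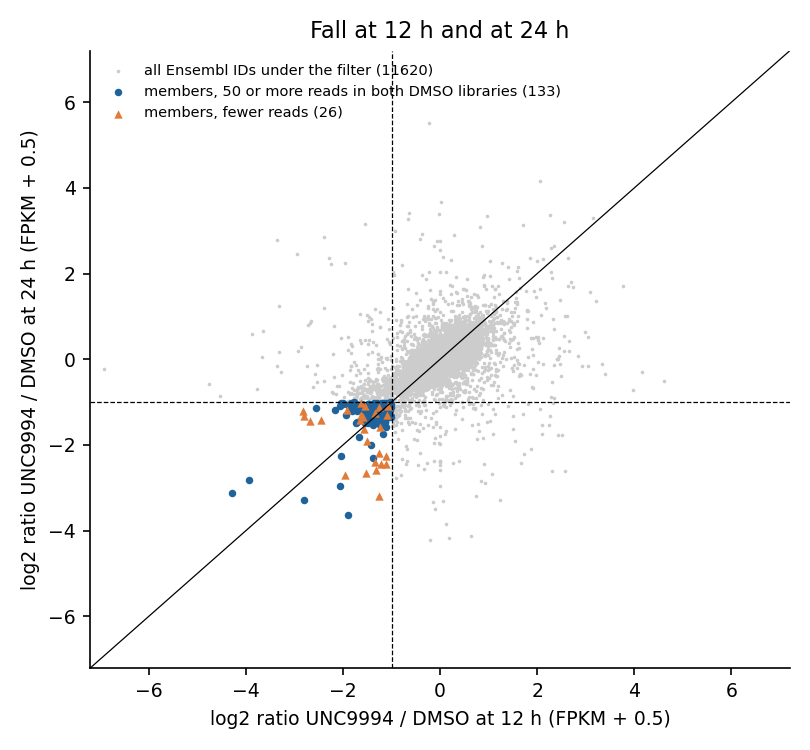
Log2 ratio of UNC9994 to DMSO at 12 h (horizontal) against 24 h (vertical), both on FPKM + 0.5, for the 11620 IDs under the filter (grey) and the 159 members (circles for 133 that held 50 or more reads in each DMSO library, triangles for 26 with fewer); dashed lines mark the bound of -1 and the solid line equal ratios. Most members crowd against the bound, and 5 lie at or below -2 at both times.

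The 2 members nearest the bound from inside had larger ratios of -1.001 and -1.002. The 2 IDs nearest it from outside had -0.997 and -0.996, with both of their UNC9994 values also below both DMSO values. Of the 4, the ID at -0.997 rested on 48 reads in DMSO at 24 h and the others on at least 262 in each DMSO library. Membership at this edge therefore turned on differences far smaller than the counting error of the reads.

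The member lowest on average was ENSRNOG00000052226, with a recovered gene model of 2604 bases. It had 19.4 FPKM in DMSO at 12 h, 8.99 in DMSO at 24 h, 0.524 in UNC9994 at 12 h and 0.590 in UNC9994 at 24 h. These values rest on 1010, 416, 31 and 33 reads. Both drug libraries held it at nearly the same low level, while the vehicle level was lower at 24 h than at 12 h. At 12 h it stood at 2.70% of vehicle and at 24 h at 6.56%.

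The next was ENSRNOG00000020616, with a gene model of 1747 bases. It had 30.8 FPKM in DMSO at 12 h, 16.2 in DMSO at 24 h, 1.54 in UNC9994 at 12 h and 1.89 in UNC9994 at 24 h, from 1077, 504, 61 and 71 reads. It repeated the pattern of the first, with a low and steady level on the drug and a vehicle level that was lower at 24 h. It stood at 4.99% of vehicle at 12 h and at 11.6% at 24 h.

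The other members at or below -2 at both times were 3 transcripts of lower abundance, and unlike the first pair they were at their lowest relative to vehicle at 24 h. The member ranked 3 by mean ratio had 4.94 FPKM in DMSO at 12 h, 6.27 in DMSO at 24 h, 0.275 in UNC9994 at 12 h and 0.194 in UNC9994 at 24 h. The drop was 17.98-fold at 12 h, with a 95% counting interval of 7.96 to 50.2, and 32.4-fold at 24 h (12.3 to 121). The wide intervals come from 6 and 4 reads in the drug libraries, so the order of the 2 times is not resolved for it. The member ranked 5 stood 5.84-fold (3.26 to 11.2) below vehicle after 12 h and 13.5-fold (6.54 to 32.1) after 24 h. The member ranked 8 stood 5.70-fold (4.11 to 8.07) and 7.18-fold (4.95 to 10.7) below it. Their intervals for the 2 times overlap as well.

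The member ranked 4 differed from all of these in its vehicle level. It had 4.62 FPKM in DMSO at 12 h and 20.7 in DMSO at 24 h, against 0.881 in UNC9994 at 12 h and 1.22 in UNC9994 at 24 h. The drop was 5.24-fold (3.41 to 8.34) after 12 h and 17.0-fold (12.0 to 24.8) after 24 h. The vehicle level was over 4 times as high at 24 h as at 12 h, and the drug libraries did not follow.

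Abundant members were the best measured. The most abundant member had 575 FPKM in DMSO at 12 h, 563 in DMSO at 24 h, 262 in UNC9994 at 12 h and 269.8 in UNC9994 at 24 h. Its drop of 2.20-fold (2.13 to 2.27) after 12 h and 2.09-fold (2.02 to 2.16) after 24 h was just past the bound. The second had 220 FPKM in DMSO at 12 h, 206 in DMSO at 24 h, 85.8 in UNC9994 at 12 h and 89.3 in UNC9994 at 24 h. In both, libraries of the same treatment were close to each other and far from the other treatment.

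The third most abundant member had 133 FPKM in DMSO at 12 h, 173 in DMSO at 24 h, 39.4 in UNC9994 at 12 h and 60.8 in UNC9994 at 24 h. The drop measured 3.37-fold (3.23 to 3.52) after 12 h and 2.84-fold (2.74 to 2.95) after 24 h. The transcript was higher at 24 h under either treatment. In all, 25 members had a mean DMSO level of at least 50 FPKM. For these the log2 ratio had medians of -1.35 (12 h) and -1.20 (24 h), close to those of all members, and lowest values of -2.16 and -1.73, so none of the 25 was at or below -2 at both times.

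Counting error separated 2 kinds of member. In 133 members both DMSO libraries held at least 50 reads, with a median of 1122 reads in DMSO at 12 h. For all 133 the whole 95% counting interval of the fold lay below the vehicle level at both times, which follows from the rule and the reads. For 81 it lay at 2-fold lower or beyond at both times. In 26 members at least 1 DMSO library held fewer than 50 reads, with a median of 5 reads in each. For 5 of these the interval lay below vehicle at both times, and for 0 of them beyond 2-fold. The 133 were 1.28% of the 10369 IDs with as many DMSO reads.

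The 26 members with few reads were also short. Their recovered gene models had a median of 105.5 bases, and 21 were under 200 bases, against 0 of the other 133. Among them were all 15 members listed at 0 in a UNC9994 library, of which 6 were at 0 in both. Those 6 had between 1 and 5 reads in each DMSO library, so that 0 reads on the drug allow up to 3 and no fold is given. A gene model of this length passes 2 FPKM with a handful of reads, and the depth of their drop is not resolved by these reads. Of the 27 members at or below -2 at either time, 13 were of this kind. Read numbers this small may also be too low by a whole factor, because the shortest length that fitted was used.

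Recovery is the log2 ratio at 24 h minus that at 12 h, and is above 0 where the level on the drug was closer to vehicle at 24 h. The rule allows no full recovery, since each member had to stay at or below -1. Over the 159 members the median recovery was 0.098. In all, 98 members were closer to vehicle at 24 h and 61 at 12 h. For all 11620 IDs the median was 0.032 and the ratio was higher at 24 h for 55.2%, against 61.6% of members. With FPKM rescaled to total reads the numbers were 84 of the 159 and a median of 0.036. The size of the members' own tilt thus depends on how the libraries were scaled. Such rescaling shifts all 11620 IDs about alike, and their rescaled values were not taken. It therefore says nothing on the difference between the members and all IDs.

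The spread of recovery followed the reads. Among the 26 members with few reads it had an SD of 0.94 and ran from -1.92 to 1.60. Among the other 133 the SD was 0.43 and the median 0.104. A recovery of at least 0.5 was seen in 28 of the 159, against 6.22% of all 11620 IDs, and one of -0.5 or below in 14, against 5.73%. Of the 133, 80 (60.2%) had a recovery within 0.25 of 0, against 72.4% of the 10369 IDs with as many reads. For 43 of the 133 the 95% counting interval of the recovery (normal approximation, no pseudocount) lay above 0, for 20 below 0, and for 70 it included 0. Of the 10369 IDs with as many reads, 23.7% had an interval above 0 and 15.2% below.

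**Figure D3:**
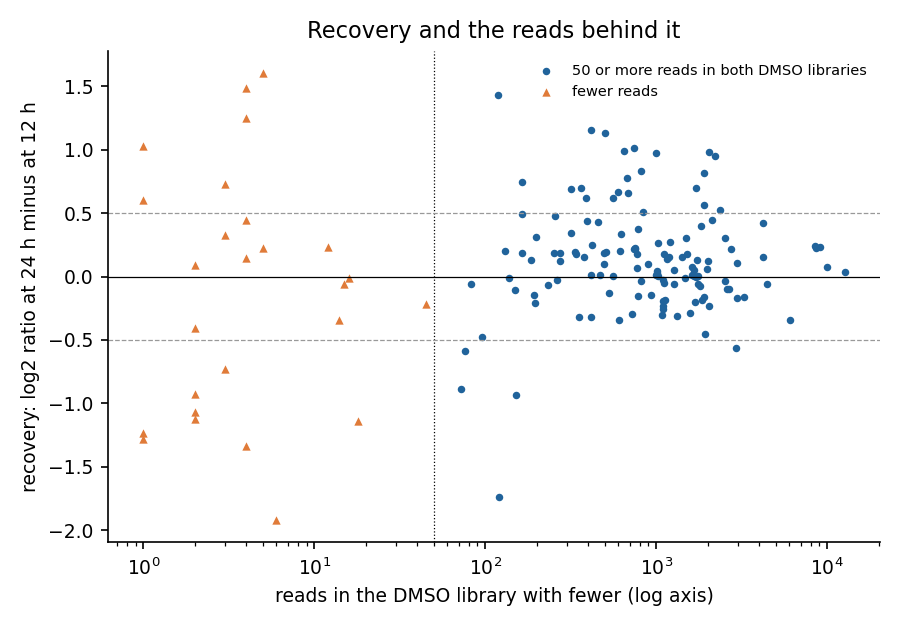
Recovery (log2 ratio at 24 h minus that at 12 h) of each member against the reads in whichever DMSO library held fewer (log axis), with a dotted line at 50 reads and dashed lines at 0.5 and -0.5. The 26 members with few reads (triangles) spread from -1.92 to 1.60, and most of the 133 others (circles) lie between the dashed lines.

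Of the 133 members with enough reads, 22 recovered by at least 0.5 and 5 deepened by at least 0.5, which left 106 between. Among the 10369 IDs with as many reads the shares were 3.77% and 2.68%. The rule used these ratios, so nothing is read from the members' shares. The 22 stood at a median of 24.3% of vehicle at 12 h and 45.0% at 24 h; a low level at 12 h is built into this choice, since the ratio at 24 h had to stay at or below -1. The 106 stood at 39.8% and 41.3%, and levels that differ little between the times are built into the choice of a recovery within 0.5.

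Recovery can come from a higher level on the drug at 24 h or from a lower level in vehicle, and it is exactly the difference of these 2 changes. In 19 of the 22 the change on the drug was the larger, and in all 22 the drug library held a higher level at 24 h. Their median log2 change from 12 h to 24 h was 0.66 in UNC9994 and -0.099 in DMSO, and in 17 the DMSO change was under 0.25 in size. A choice on recovery favours a higher drug level at 24 h. The same counts were not taken over the 391 of 10369 IDs with as many reads that recovered by at least 0.5. Nothing particular to the members is therefore read from them. The clearest abundant case was the member eighth in vehicle level, with 108 FPKM in DMSO at 12 h, 97.9 in DMSO at 24 h, 23.7 in UNC9994 at 12 h and 42.9 in UNC9994 at 24 h. Its vehicle level was nearly steady, and it went from 4.55-fold lower (4.17 to 4.98) to 2.28-fold lower (2.12 to 2.46).

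The other 3 of the 22 had the larger change in vehicle, and the 2 lowest members of the whole list were among them. ENSRNOG00000052226 recovered by 1.16, of which a change of -1.07 in DMSO and of 0.090 in UNC9994 were the parts. ENSRNOG00000020616 recovered by 1.13, with -0.90 in DMSO and 0.23 in UNC9994. In these 2 the ratio came closer to 0 mainly because the vehicle library held less at 24 h, and the level on the drug remained under 2 FPKM.

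The largest recovery among the 133 was 1.43, in the member ranked 16 by mean ratio. It had 3.78 FPKM in DMSO at 12 h, 6.05 in DMSO at 24 h, 0.224 in UNC9994 at 12 h and 2.49 in UNC9994 at 24 h. It went from 16.9-fold lower (8.30 to 40.02) to 2.43-fold lower (1.86 to 3.20), and the intervals do not overlap. Here the drug and the vehicle libraries were both higher at 24 h, the drug library by far more.

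**Figure D4:**
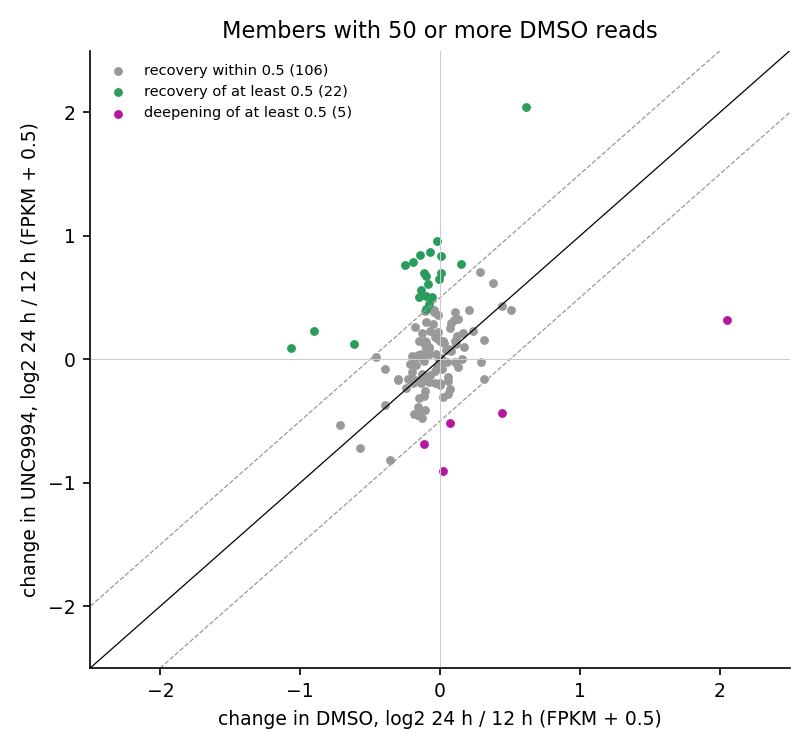
Log2 change from 12 h to 24 h in DMSO (horizontal) and in UNC9994 (vertical), on FPKM + 0.5, for the 133 members that held 50 or more reads in each DMSO library; the vertical distance above the solid diagonal is the recovery, and dashed lines mark 0.5 on either side. Of the 22 recovering members, 19 lie high on the vertical axis, most near a DMSO change of 0 and 1 at 0.61, and 3 lie to the left, where the vehicle level was lower at 24 h.

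The 5 deepening members included 1 abundant transcript. The member sixth in vehicle level had 111 FPKM in DMSO at 12 h, 102 in DMSO at 24 h, 49.1 in UNC9994 at 12 h and 30.4 in UNC9994 at 24 h. The drop was 2.26-fold (2.14 to 2.396) after 12 h and 3.37-fold (3.14 to 3.62) after 24 h, with a lower level on the drug at 24 h and a nearly steady vehicle. The member ranked 17 by mean ratio had 2.38 FPKM in DMSO at 12 h, 2.43 in DMSO at 24 h, 0.613 in UNC9994 at 12 h and 0.0926 in UNC9994 at 24 h. It stood 3.89-fold (2.82 to 5.47) below vehicle after 12 h and 26.3-fold (12.4 to 66.4) after 24 h. In the member ranked 4 by mean ratio, described above, the deepening lay in vehicle, which changed by 2.05 against 0.32 in UNC9994.

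Small changes in vehicle level between the times were otherwise about as common among the members as among other genes. The DMSO change was under 0.25 in size for 111 of the 133 (83.5%), and for 83.3% of the 10369 IDs with as many reads. Its median was -0.077 over the 133 and -0.021 over those IDs. The DMSO level was lower at 24 h in 89 of the 133, and in 6263 of all 11620 IDs, which are not matched for reads. This difference in direction was not tested. A change of at least 1 in size was seen in 2 of the 133 and in 8 of the 26 with few reads. Over all 11620 IDs, 1.16% were at or below -1 and 1.49% at or above 1 between the DMSO libraries. Between the UNC9994 libraries, 0 of the 133 were at or below -1 and 1 at or above 1. Of the 26 with few reads, 5 and 3 were, against 1.31% and 1.39% of all 11620 IDs. For changes of at least 1, no shares were taken over IDs with as many or as few reads. Nothing particular to the members is therefore read from these counts.

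Gene model length was not used by the rule beyond its part in FPKM. The 133 members with enough reads had a median length of 2491 bases, against 2283 for the 10369 IDs with as many reads. When the 11620 IDs were divided by length into 4 classes of equal size, these members numbered 21 in the shortest (up to 1209 bases), 27 and 41 in the next 2 and 44 in the longest (above 3345 bases). The longest class held 33.1% of them and 27.9% of the 10369 IDs. The 26 members with few reads all lay in the shortest class.

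The 75 IDs higher at both times had another spread of lengths. With at least 50 reads in both UNC9994 libraries, where they were high, 40 remained, with a median of 1677.5 bases. From the shortest class to the longest they numbered 13, 14, 11 and 2. The longest class thus held 5% of them against 33.1% of the members with enough reads, which was not tested. It held 27.5% of all 10519 IDs with at least 50 reads in both UNC9994 libraries. The 2 sets passed through different libraries, and the 40 had a median mean DMSO level of 3.78 FPKM. Within the 133 members, length went with neither ratio: the Spearman correlation was 0.026 at 12 h and 0.021 at 24 h, over genes from the same libraries.

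**Figure D5:**
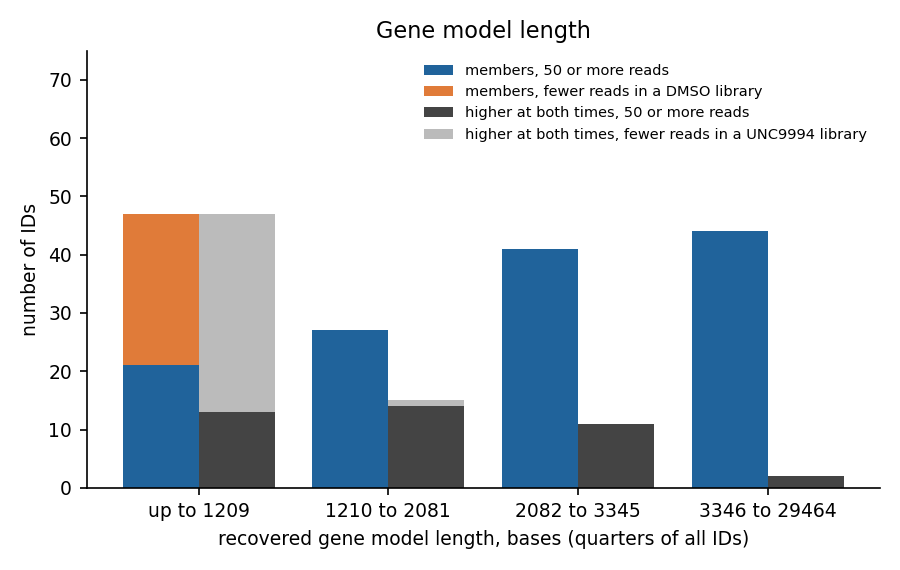
Number of IDs lower at both times (left bars, 159) and higher at both times (right bars, 75) in 4 equal classes of recovered gene model length over all 11620 IDs, split by whether both libraries of the treatment in which they were high held at least 50 reads. Members with enough reads number 21, 27, 41 and 44 from short to long, and IDs higher at both times with enough reads 13, 14, 11 and 2.

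The genes lower at 12 h alone numbered 301, with a median log2 ratio of -0.63 at 24 h, and 194 of them were still at or below -0.5 then while 59 were above 0. The 171 lower at 24 h alone had a median of -0.18 at 12 h, but 36.8% of them had 50 reads in both DMSO libraries, against 67.8% of the 301. Among the IDs with that many reads the medians at the other time were -0.70 for 204 lower at 12 h alone and -0.75 for 63 lower at 24 h alone, so the gap between the 2 sets was seen only with the IDs of few reads included.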

How the data were processed

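RNA-seq libraries of MMQ cells were deposited as FPKM per gene, per the file headers, in 1 series table and 4 single-sample tables that held the same values. The submitters' processing notes list CASAVA, TopHat2 version 2.0.7, Bowtie2, HTSeq and build Rnor_6.0. No role or annotation release is given in the sources used here. Of 35042 rows, 1209 exact repeats and 1 truncated ID were removed. The members and gene lists were chosen with earlier results of these data known. With no gene names, the rule for named genes reduced to the 2 IDs lowest by mean log2 ratio, and members singled out by rank were chosen after their values were seen.

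From each ID's deposited FPKM, the shortest gene model of at least 40 bases was found that gave a whole number of reads per library, with a tolerance of 0.001 reads and a relative 1e-08. It existed for all 16009 IDs that were above 0 throughout. No use of strand is stated, so reads of overlapping genes may be shared. Lengths and reads may be whole multiples of those given. The 4 divisors behind the FPKM equalled median-of-ratios factors of the recovered reads times 1 constant (to 1e-08), so the deposited values already had this scaling. Fold intervals are exact binomial at 95% and cover counting error only. Sequencing reads without molecular identifiers are not independent molecules. The scripts were tested on simulated data. Python 3.11.15, scipy 1.17.1 and pandas 2.3.3 were used. No p-value was computed.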

Additional observations from a re-analysis of the deposited data

Results flagged for a closer look

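IDs without an Ensembl number were outside the rule and are in no comparison above: 3 of the 613 that reached 2 FPKM were at or below -1 at both times (0.489%), against 1.37% of Ensembl IDs, and 11 were at or above 1 at both times (1.79%), against 0.645%. One of the 3 lower IDs had 1.56 FPKM in DMSO at 12 h, 54.5 in DMSO at 24 h, 0.393 in UNC9994 at 12 h and 9.56 in UNC9994 at 24 h, from 7, 217, 2 and 46 reads, so that it was far higher at 24 h under either treatment. These differences were not tested.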

How the results depend on the processing

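Of 56 alternative values, 49 stayed close, 7 moved and 0 reversed. Counts were judged by a factor of 1.5, and single IDs by a shift under 0.5 of their interval's width. Medians were judged by an interval taken over the members, which are genes from the same libraries and not replicates. The values restricted to at least 50 DMSO reads, and the requirement of an interval at 2-fold or beyond, were chosen after seeing the data. The latter left 81 of the 159 members. The other settings gave 122 members (pseudocount 1) to 203 (pseudocount 0.1), the latter with all 159 among them. Total-read scaling gave 153, of which 150 were shared. The median log2 ratio moved with the pseudocount, to -1.44 (0.1) and -1.25 (1) at 12 h and to -1.29 and -1.14 at 24 h, by the construction of the ratio. With pseudocount 0.1 the ratio of ENSRNOG00000052226 moved to -4.96 at 12 h and -3.72 at 24 h. Median-of-ratios scaling was already in the deposited values, so it could change next to nothing. Its values are counted among the 49 and add nothing to that number's weight. Depth limits the 26 members with few reads. No paired analysis was possible because there was 1 library per combination of treatment and time, and the members were chosen on both contrasts. An additive fit of treatment and time, with 1 residual degree of freedom, was not run.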
